A study of Mus musculus with 30 samples.

Results

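Digit tips of mice collected 21 d after amputation were compared with digit tips collected at 0 h, with 3 mice at each time, so that the comparison uses 6 of the 30 libraries of the series and all of its genes. The series follows the third digit of the hindlimb over 9 times from 0 h to 21 d after at most 33% of the distal phalanx (P3) was removed, with 3 mice at each time and 6 at 7 d. Each library is polyadenylated RNA of 1 digit tip, and the value of each gene is the estimated number of reads from it (expected count), given here per 1000000 counts after TMM normalization (CPM). All mice of both groups were adult male C57Bl/6 mice without a named genetic change, all 6 digits came from the right foot, and the skin wounds were left without sutures. The 0 h digits stand for the tip as it was at amputation, and no animal code appears at both times, so that each difference is one between animals. The libraries hold bone, marrow, nail, skin and soft tissue together, and in such bulk RNA fewer cells of a type and less RNA per cell cannot be told apart.

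The tip of the terminal phalanx is one of the few parts of an adult mammal that grows back after amputation. The stump bone is first eroded by osteoclasts, the epidermis closes over the wound, and a blastema of connective tissue cells gathers under it. New bone then forms mainly by direct ossification, in which osteoblasts lay down a matrix of type I collagen that is mineralized afterwards, while the nail, whose stem cells are needed for regrowth, continues to grow.

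Dates in the sample names split the series into an earlier campaign (July to August) and a later one (November to the next January). All 3 mice at 21 d belong to the later campaign, with mice 1 and 2 dated January 8 and mouse 3 dated December 2, as do 0 h mice 1 and 2 (November 30). The third mouse at 0 h is dated July 20, and its animal code and date also appear on a 12 h library. The counts of that pair differed by 23.7 per degree of freedom in a chi-square statistic. Against 0 h mice 1 and 2, the third 0 h mouse had 24.2 and 35.0, and 0 h mice 1 and 2 had 17.4 between them. Pairs of 21 d mice had 32.7 to 94.7. The 2 libraries of that pair were treated as separate, but this statistic, which also depends on depth, cannot tell whether both came from 1 animal. The same code is also on a 3 h library of another date. Totals ran from 6094594 to 12773234 counts at 0 h and from 9717590 to 16277805 at 21 d. Within the later campaign, 21 d can be set against 2 mice at 0 h, and those values are given beside the pooled ones where the call differs.

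At 21 d, 239 genes were higher and 29 lower than at 0 h among 13793 genes tested, with a Benjamini-Hochberg adjusted p under 0.05 in edgeR's quasi-likelihood test. These calls are 1.94% of the genes tested, 1.73% for the higher and 0.21% for the lower ones, and 9.22% of the genes tested had an unadjusted p under 0.05. The lower count varied with the fit, with 62 genes with campaign as a covariate, 65 by DESeq2, 81 in a fit of the 6 libraries alone and 46 without the left-foot mice of other times. Of the 268 genes, 90 belong to the lists described here. Among the higher ones were genes of fibrillar and network collagens, the enzymes that modify them, the matrix of healing wounds, matrix proteinases and bone formation, and among the lower ones were hemoglobins. The median log2 fold change was 1.67 among the higher genes and -1.53 among the lower ones, against -0.00445 over all genes tested, and 85 of the higher and 8 of the lower genes changed at least 4-fold. The 21 d mice were all above the 0 h mice for 236 of the higher genes and all below them for 29 of the lower ones, where 12.5% and 10.2% of all genes tested had such an order. The calls were made on these same mice, which favours such an order. In the later campaign alone, 268 of the 268 genes kept their direction and 173 passed the test. That fit reuses all 3 mice at 21 d and 2 of those at 0 h, so the kept direction is no separate support. With each of the 6 mice left out in turn, 94 genes passed every time, 89 of them higher and 5 lower. The count of calls fell to 106 without 21 d mouse 1, to 117, 153 and 140 without 0 h mice 1, 2 and 3, and to 178 without 21 d mouse 2.

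**Figure D1:**
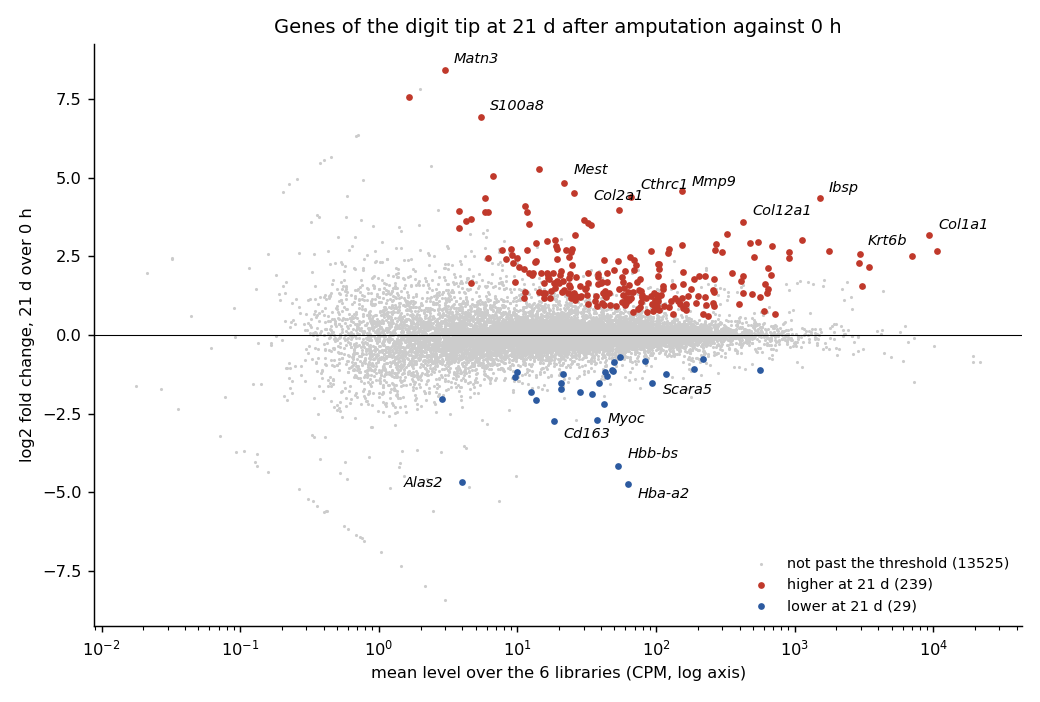
Log2 fold change of each gene, 21 d over 0 h, against its mean level over the 6 libraries in CPM on a log axis, with the 239 higher genes in red, the 29 lower genes in blue and all others in grey. Most red points lie above the grey cloud at levels over 10 CPM, with the collagen gene Col1a1 and the bone gene Ibsp at the right, and the 3 lowest blue points are the erythroid genes Hba-a2, Alas2 and Hbb-bs.

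Genes of collagen chains had the largest share of higher calls among the lists examined. Among the genes of collagen chains, 17 of the 24 genes tested rose and 0 fell, with a median log2 fold change of 2.22. In 20 of the 24 every 21 d mouse was above every 0 h mouse (12.5% of all genes tested). Col1a1, the main chain of type I collagen of bone and dermis, had 1544, 2865 and 1111 CPM in the 0 h mice and 20696, 17134 and 12786 CPM in the 21 d mice (log2 fold change 3.20, SE 0.40, adjusted p = 1.02e-05). Even the lowest 21 d mouse had more than 4 times the level of the highest 0 h mouse. For Col12a1, a collagen that sits on the surface of type I fibrils, the levels were 68.4, 59.9 and 65.6 CPM at 0 h and 1055, 793 and 508 CPM at 21 d, a log2 fold change of 3.60 (SE 0.39, adjusted p = 2.20e-06). Col11a1, a minor fibrillar chain of cartilage and young bone, was at 706, 549.7 and 514 CPM in the 21 d mice, against 45.6, 104 and 42.4 CPM in the 0 h mice (log2 fold change 3.20, SE 0.37, adjusted p = 4.30e-06). The groups lay far apart in all of these, and the order of the 21 d mice was the same, with mouse 1 highest and mouse 3 lowest. Col5a1, a chain of type V collagen, which starts fibril assembly, had 227, 323 and 185 CPM in the 0 h mice and 2688, 1928 and 1369 CPM in the 21 d mice (log2 fold change 3.03, SE 0.35, adjusted p = 4.43e-06).

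The other chains that rose included those of type III, V and VI collagen and of the basement membrane, namely Col6a3 (2.94), Col6a2 (2.85), Col1a2 (2.67), Col5a2 (2.67), Col3a1 (2.52), Col4a1 (2.48), Col6a1 (2.45), Col8a2 (2.38) and Col4a2 (1.98), each as a log2 fold change. Col17a1, the hemidesmosome collagen of basal keratinocytes, had 1458, 1425 and 1384 CPM at 0 h and 1997, 1485 and 1394 CPM at 21 d and did not pass the test (log2 fold change 0.19, 95% interval -0.27 to 0.66, adjusted p = 1). Col7a1, which anchors the epidermis to the dermis, with 552, 912 and 654 CPM at 0 h and 1527, 1098 and 1062 CPM at 21 d, was not called (log2 fold change 0.80, 95% interval 0.27 to 1.33, adjusted p = 0.15). Both are made mainly by keratinocytes, and the 21 d mice overlapped the 0 h mice for Col17a1 but not for Col7a1. Summed over the list, collagen chains took 8610.2 to 15671 CPM at 0 h, 45893 to 55505 CPM at 14 d and 47883 to 81545 CPM at 21 d. In TPM, a unit that allows for gene length, they were 0.33 to 0.57% of all transcripts at 0 h and 1.67 to 2.70% at 21 d. The number of chains called stayed between 15 and 17 when any 1 mouse was left out.

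The machinery that folds, trims and crosslinks collagen rose with its chains, as 15 of the 25 genes tested rose and 0 fell (median log2 fold change 1.37). P4ha3, a subunit of the prolyl hydroxylase that stabilizes the triple helix, had 4.72, 3.73 and 2.24 CPM in the 0 h mice and 39.9, 29.4 and 17.6 CPM in the 21 d mice (log2 fold change 2.99, SE 0.45, adjusted p = 1.47e-04). For Lox, the lysyl oxidase that starts crosslinks between fibrils, the levels were 30.1, 35.6 and 38.2 CPM at 0 h and 302, 211 and 116 CPM at 21 d, a log2 fold change of 2.60 (SE 0.45, adjusted p = 8.01e-04). No 21 d mouse reached down to the 0 h range for either gene. Fkbp10, a chaperone of procollagen whose loss causes brittle bones, was at 144, 101 and 87.6 CPM in the 21 d mice, against 24.0004, 18.1 and 16.5 CPM in the 0 h mice (log2 fold change 2.50, SE 0.28, adjusted p = 4.16e-06). Lepre1, the prolyl 3-hydroxylase of type I collagen, had 15.5, 11.7 and 13.6 CPM in the 0 h mice and 91.7, 72.9 and 47.8 CPM in the 21 d mice (log2 fold change 2.38, SE 0.34, adjusted p = 8.93e-05). Smaller rises were found for Sparc (2.31), Plod2 (2.23), Serpinh1 (2.008), P4ha2 (1.64), Loxl2 (1.56), Pcolce (1.46) and Bmp1 (1.18), which bind, hydroxylate, chaperone, crosslink or cleave procollagen. Colgalt1, a collagen galactosyltransferase, had 46.0, 44.6 and 42.6 CPM at 0 h and 77.4, 75.2 and 45.6 CPM at 21 d and did not pass the test (log2 fold change 0.58, 95% interval 0.07 to 1.078, adjusted p = 0.403). Leprel4, which forms a complex in the same folding pathway, with 37.8, 39.0 and 52.3 CPM at 0 h and 68.5, 53.2 and 37.1 CPM at 21 d, was not called (log2 fold change 0.30, 95% interval -0.22 to 0.82, adjusted p = 0.943). The number of members that rose was 9 without 21 d mouse 1, and 10 to 15 without any other mouse.

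Genes of TGF-beta signalling and of the matrix of healing wounds followed the same direction, and 14 of the 22 genes tested rose and 0 fell (median log2 fold change 1.37). The smallest adjusted p of all 13793 genes tested was that of Cthrc1 (chr15:39076932-39087121 in GRCm38), a secreted protein of wound fibroblasts and osteoblasts. It had 7.12, 7.78 and 2.56 CPM in the 0 h mice and 155, 126 and 98.6 CPM in the 21 d mice (log2 fold change 4.40, SE 0.37, adjusted p = 1.70e-08). For Postn, a matricellular protein of periosteum and healing skin, the levels were 241, 263 and 243 CPM at 0 h and 1981, 1559.5 and 1173 CPM at 21 d, a log2 fold change of 2.66 (SE 0.46, adjusted p = 8.66e-04). Tnc, the adhesion-modulating glycoprotein tenascin C, was at 702, 432 and 291 CPM in the 21 d mice, against 62.2, 57.9 and 73.3 CPM in the 0 h mice (log2 fold change 2.88, SE 0.35, adjusted p = 8.91e-06). For Postn and Tnc the 3 mice of each group were well separated, with 21 d mouse 1 highest. Fbn2, a microfibril protein of growing tissues, had 3.44, 2.24 and 3.84 CPM in the 0 h mice and 29.4, 32.2 and 11.1 CPM in the 21 d mice (log2 fold change 2.94, SE 0.68, adjusted p = 0.0144). Ligands and regulators in the list had smaller log2 fold changes, among them Tgfb1 (1.34), Tgfb3 (1.21), Inhba (1.85) and Ltbp2 (1.84).

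Aspn, a small proteoglycan that binds TGF-beta and collagen, had 203, 248.7 and 181 CPM at 0 h and 718, 665 and 431 CPM at 21 d and did not pass the test (log2 fold change 1.52, 95% interval 0.54 to 2.50, adjusted p = 0.129). Thbs1, thrombospondin 1, an activator of latent TGF-beta, with 208, 222 and 184 CPM at 0 h and 501, 402 and 428 CPM at 21 d, was not called (log2 fold change 1.115, 95% interval 0.44 to 1.79, adjusted p = 0.0898). Every 21 d mouse was above every 0 h mouse for both. The number of members that rose was 6 without 21 d mouse 1, 7, 9 and 8 without 0 h mice 1, 2 and 3, and 9 without 21 d mouse 2. Leaving out 1 mouse moved the adjusted p to 0.0667 to 0.1125 for Fbn2 without 0 h mouse 1, 2 or 3 or 21 d mouse 1 or 2. Cthrc1, Postn and Tnc passed the test whichever of the 6 mice was left out.

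Among matrix proteinases and their inhibitors, 9 of the 16 genes tested rose and 0 fell (median log2 fold change 1.86). Mmp9, the gelatinase of osteoclasts and neutrophils, had 7.52, 6.61 and 24.2 CPM in the 0 h mice and 473, 313 and 104 CPM in the 21 d mice (log2 fold change 4.57, SE 0.58, adjusted p = 1.04e-05). For Mmp13, the collagenase that osteoblasts and hypertrophic chondrocytes make, the levels were 3.04, 1.60 and 9.28 CPM at 0 h and 91.3, 54.6 and 22.1 CPM at 21 d, a log2 fold change of 3.67 (SE 0.75, adjusted p = 0.0045). Timp1, a secreted inhibitor of these proteinases, was at 36.2, 19.1 and 10.3 CPM in the 21 d mice, against 1.04, 2.03 and 1.28 CPM in the 0 h mice (log2 fold change 3.91, SE 0.54, adjusted p = 4.34e-05). None of the 3 overlapped between the groups, and for each of them 21 d mouse 1 was highest and mouse 3 lowest. Mmp23, a membrane-bound proteinase, had 3.68, 4.48 and 0.960 CPM in the 0 h mice and 28.1, 21.2 and 11.97 CPM in the 21 d mice (log2 fold change 2.72, SE 0.68, adjusted p = 0.0266). Collagenases and gelatinases of stromal cells also rose, with Mmp14 (1.88), Mmp2 (1.71) and Mmp19 (1.97), as did Timp2 (1.31) and Adamts4 (2.43). Timp3, a matrix-bound inhibitor, had 423, 493 and 466 CPM at 0 h and 268, 250.01 and 406 CPM at 21 d and did not pass the test (log2 fold change -0.58, 95% interval -1.0812 to -0.08, adjusted p = 0.389). Adamts5, an aggrecan-cleaving proteinase, with 21.9, 23.98 and 13.9 CPM at 0 h and 12.6, 16.99 and 19.5 CPM at 21 d, was not called (log2 fold change -0.29, 95% interval -1.49 to 0.91, adjusted p = 1). Without 0 h mouse 1, 5 members rose. The adjusted p with 1 mouse fewer was 0.055 to 0.0645 for Mmp13 without 0 h mouse 1 or 2 and 0.064 to 0.218 for Mmp23 without 0 h mouse 1, 2 or 3 or 21 d mouse 1 or 2, and in the later campaign alone it was 0.0677 for Mmp23. Mmp9 and Timp1 passed the test whichever of the 6 mice was left out.

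The promoters of Mmp13 and of Spp1, a bone gene described next, are shown because both hold a motif of RUNX factors, the family of the osteoblast regulator Runx2. They are the 250 bases before the RefSeq start in GRCm38.p6, on the + strand and read 5′ to 3′, at chr9:7272264-7272513 for Mmp13 and chr5:104434861-104435110 for the first of 2 starts of Spp1. Capitals mark matches on either strand to 4 short motifs, none of which overlap each other here. The RUNX motif searched was TGTGGT. The AP-1 motif was TGANTCA, with N for any base. The cyclic AMP response element (CRE) was TGACGTCA. The TATA box was searched as TATAAA.
Mmp13: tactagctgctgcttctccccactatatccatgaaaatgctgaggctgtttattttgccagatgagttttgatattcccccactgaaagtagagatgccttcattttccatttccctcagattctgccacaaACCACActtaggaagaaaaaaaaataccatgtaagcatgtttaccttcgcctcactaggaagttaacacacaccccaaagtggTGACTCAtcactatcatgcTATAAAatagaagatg
Spp1: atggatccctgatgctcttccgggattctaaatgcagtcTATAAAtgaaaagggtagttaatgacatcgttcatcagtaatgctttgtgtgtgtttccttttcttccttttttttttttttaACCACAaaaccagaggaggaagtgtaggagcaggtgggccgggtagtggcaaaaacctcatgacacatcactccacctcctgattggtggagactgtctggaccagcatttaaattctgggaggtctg
The RUNX match begins 118 bases before the start of Mmp13 and 128 before that of Spp1, and the AP-1 match of Mmp13 35 bases before its start. Among all 32851 promoters of the table, 14% held the RUNX motif in this window, 6.75% the AP-1 motif, 1.55% the CRE and 12.4% the TATA box. Of the 15 genes that rose most, 12 had a promoter in the table, and 1 of their 15 promoters held the RUNX motif, 2 the AP-1 motif, none the CRE and 5 the TATA box. For the 15 that fell most, with 12 promoters of 11 genes, these were 1, 2, none and 2. Of the 19 promoters of 14 genes of bone-forming cells, 5 held the RUNX motif (Bglap, Spp1, Dmp1, Mepe and Enpp1), and of these 5 genes only Spp1 passed the test. None of the 25 promoters of 19 immediate early genes held the RUNX or AP-1 motif, 3 held the CRE and 2 the TATA box. A match describes letters in the window and is no evidence of binding.

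Of the genes of bone-forming cells, 4 of the 16 genes tested rose and 0 fell (median log2 fold change 0.72). The 4 that rose, Ibsp, Alpl, Spp1 and Pth1r, act in osteoblasts that make and mineralize matrix. The 12 not called held the osteocyte genes Dmp1, Mepe and Sost, but also genes of osteoblasts and mineralization such as Bglap and Smpd3. Ibsp (chr5:104299171-104311469 in GRCm38), which encodes bone sialoprotein, a nucleator of mineral, had 128, 237 and 56.0 CPM in the 0 h mice and 3445, 2670.3 and 2587 CPM in the 21 d mice (log2 fold change 4.37, SE 0.55, adjusted p = 1.02e-05). For Alpl, the alkaline phosphatase that frees phosphate for mineral, the levels were 25.3, 25.9 and 23.04 CPM at 0 h and 196, 145 and 133 CPM at 21 d, a log2 fold change of 2.67 (SE 0.43, adjusted p = 4.03e-04). Both genes were highest at 21 d of the 9 times. Spp1, the mineral-binding protein osteopontin, was at 347, 209 and 323 CPM in the 21 d mice, against 65.9, 101 and 87.4 CPM in the 0 h mice (log2 fold change 1.79, SE 0.38, adjusted p = 0.00695). Pth1r, the receptor of parathyroid hormone on osteoblasts, had 23.2, 18.2 and 16.2 CPM in the 0 h mice and 63.9, 67.7 and 51.9 CPM in the 21 d mice (log2 fold change 1.67, SE 0.34, adjusted p = 0.00512). Bglap, the osteocalcin gene of mature osteoblasts, had 5.44, 6.82 and 10.1 CPM at 0 h and 1.76, 5.21 and 3.88 CPM at 21 d (log2 fold change -1.03, adjusted p = 0.955). The 21 d mice were all below the 0 h mice for Bglap. Bglap shares 52.7% of its 65-base windows with its copies Bglap2 and Bglap3, so that its counts are uncertain.

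Dmp1, an osteocyte matrix protein, had 24.7, 65.8 and 23.998 CPM at 0 h and 45.0, 25.8 and 41.7 CPM at 21 d and did not pass the test (log2 fold change -0.03, 95% interval -0.90 to 0.84, adjusted p = 1). Smpd3, a sphingomyelinase needed for mineralization, with 137, 115 and 68.5 CPM at 0 h and 88.3, 116 and 138 CPM at 21 d, was not called (log2 fold change 0.09, 95% interval -0.56 to 0.74, adjusted p = 1). Mepe and Sost, which osteocytes express, had log2 fold changes of -1.30 and -0.75 with adjusted p of 0.78 and 1. Summed over the list, the level was 393 to 697 CPM at 0 h and 3384 to 4344 CPM at 21 d, and Ibsp alone made up 77.6% of the mean sum at 21 d. Without Ibsp, the other 15 genes summed to 337 to 460.3 CPM at 0 h and 713 to 899 CPM at 21 d. In fits without single mice, the adjusted p was 0.0559 to 0.0857 for Spp1 without 0 h mouse 1 or 21 d mouse 1 and 0.0542 for Pth1r without 0 h mouse 3. Ibsp and Alpl passed the test whichever of the 6 mice was left out.

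Among osteoblast transcription factors, 2 of the 9 genes tested rose and 0 fell. In 7 of the 9 every 21 d mouse was above every 0 h mouse (12.5% of all genes tested). Sp7, osterix, which commits cells to the osteoblast fate, had 7.04, 9.70 and 2.56 CPM in the 0 h mice and 38.1, 43.8 and 48.5 CPM in the 21 d mice (log2 fold change 2.73, SE 0.43, adjusted p = 3.09e-04). For Runx2, the regulator that acts before Sp7, the levels were 10.96, 12.9 and 11.5 CPM at 0 h and 34.7, 31.0 and 41.0 CPM at 21 d, a log2 fold change of 1.59 (SE 0.41, adjusted p = 0.0335). Among the 21 d mice, mouse 3 was highest for both genes. Atf4, which controls amino acid supply for collagen synthesis, had 116, 106 and 113 CPM at 0 h and 178, 131 and 131 CPM at 21 d and did not pass the test (log2 fold change 0.40, 95% interval -0.01 to 0.80, adjusted p = 0.559). Dlx5, a homeobox factor of early osteoblasts, with 51.4, 58.7 and 55.8 CPM at 0 h and 71.3, 70.5 and 73.8 CPM at 21 d, was not called (log2 fold change 0.38, 95% interval -0.18 to 0.93, adjusted p = 0.865). With 1 mouse left out, the adjusted p became 0.0657 to 0.187 for Runx2 whichever mouse was left out. Sp7 passed the test whichever of the 6 mice was left out.

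Genes of osteoclasts, the cells that resorb bone, also remained above 0 h at 21 d, as 4 of the 14 genes tested rose and 0 fell (median log2 fold change 1.074), Mmp9 among them. Ctsk, the collagen-degrading cathepsin of osteoclasts, had 29.8, 41.1 and 40.8 CPM in the 0 h mice and 409, 257 and 150.3 CPM in the 21 d mice (log2 fold change 2.87, SE 0.36, adjusted p = 1.02e-05). For Atp6v0d2, a proton pump subunit needed for osteoclast fusion, the levels were 1.44, 0.640 and 3.9996 CPM at 0 h and 31.9, 24.4 and 9.80 CPM at 21 d, a log2 fold change of 3.54 (SE 0.72, adjusted p = 0.00425). For both the 21 d mice were all above the 0 h mice, with the highest level in mouse 1. Nfatc1, the master transcription factor of osteoclasts, was at 119, 78.5 and 63.3 CPM in the 21 d mice, against 43.7, 33.4 and 43.0 CPM in the 0 h mice (log2 fold change 1.117, SE 0.29, adjusted p = 0.0334). The groups did not overlap for Nfatc1 either. Acp5, the tartrate-resistant acid phosphatase, had 11.9, 8.42 and 25.9 CPM at 0 h and 94.9, 66.3 and 26.9 CPM at 21 d and did not pass the test (log2 fold change 2.05, 95% interval 0.90 to 3.19, adjusted p = 0.0513). Car2, the carbonic anhydrase that supplies protons, with 75.1, 63.4 and 90.2 CPM at 0 h and 224, 168.1 and 75.6 CPM at 21 d, was not called (log2 fold change 1.03, 95% interval 0.20 to 1.86, adjusted p = 0.31). Acp5 lay above 0 h in every 21 d mouse, while for Car2 mouse 3 lay inside the 0 h range. Ostm1, a partner of the lysosomal chloride channel, had 57.6, 56.5 and 66.7 CPM at 0 h and 66.0, 61.6 and 62.2 CPM at 21 d and did not pass the test (log2 fold change 0.07, 95% interval -0.38 to 0.52, adjusted p = 1). The summed level of the list was 331 to 433 CPM at 0 h, 1087 to 1754 CPM at 14 d and 610.4 to 1583 CPM at 21 d.

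Among the signals to osteoclasts, 1 of the 5 genes tested rose (1.73% of all genes tested) and 0 fell. Tnfsf11, RANKL, the ligand that drives osteoclast formation, had 0.240, 0.959 and 0.800 CPM in the 0 h mice and 10.7, 6.76 and 3.19 CPM in the 21 d mice (log2 fold change 3.41, SE 0.71, adjusted p = 0.00573). Csf1r, the receptor of macrophage colony-stimulating factor, with 21.6, 21.5 and 27.04 CPM at 0 h and 36.2, 27.4 and 14.6 CPM at 21 d, was not called (log2 fold change 0.16, 95% interval -0.87 to 1.198, adjusted p = 1). Csf1, its ligand, had 23.2, 22.1 and 26.1 CPM at 0 h and 26.9, 23.3 and 19.04 CPM at 21 d and did not pass the test (log2 fold change -0.04, 95% interval -0.65 to 0.57, adjusted p = 1). The decoy receptor Tnfrsf11b had a log2 fold change of 0.73 (adjusted p = 0.936). Leaving out 1 mouse moved the adjusted p to 0.0539 to 0.0616 for Atp6v0d2 without 0 h mouse 1 or 2, 0.0657 to 0.499 for Nfatc1 without 0 h mouse 1, 2 or 3 or 21 d mouse 1 or 2 and 0.0575 to 0.0883 for Tnfsf11 without 0 h mouse 1 or 21 d mouse 1, and in the later campaign alone it was 0.123 for Nfatc1. Ctsk passed the test whichever of the 6 mice was left out. Without 0 h mouse 1, 2 of the osteoclast genes passed the test.

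**Figure D2:**
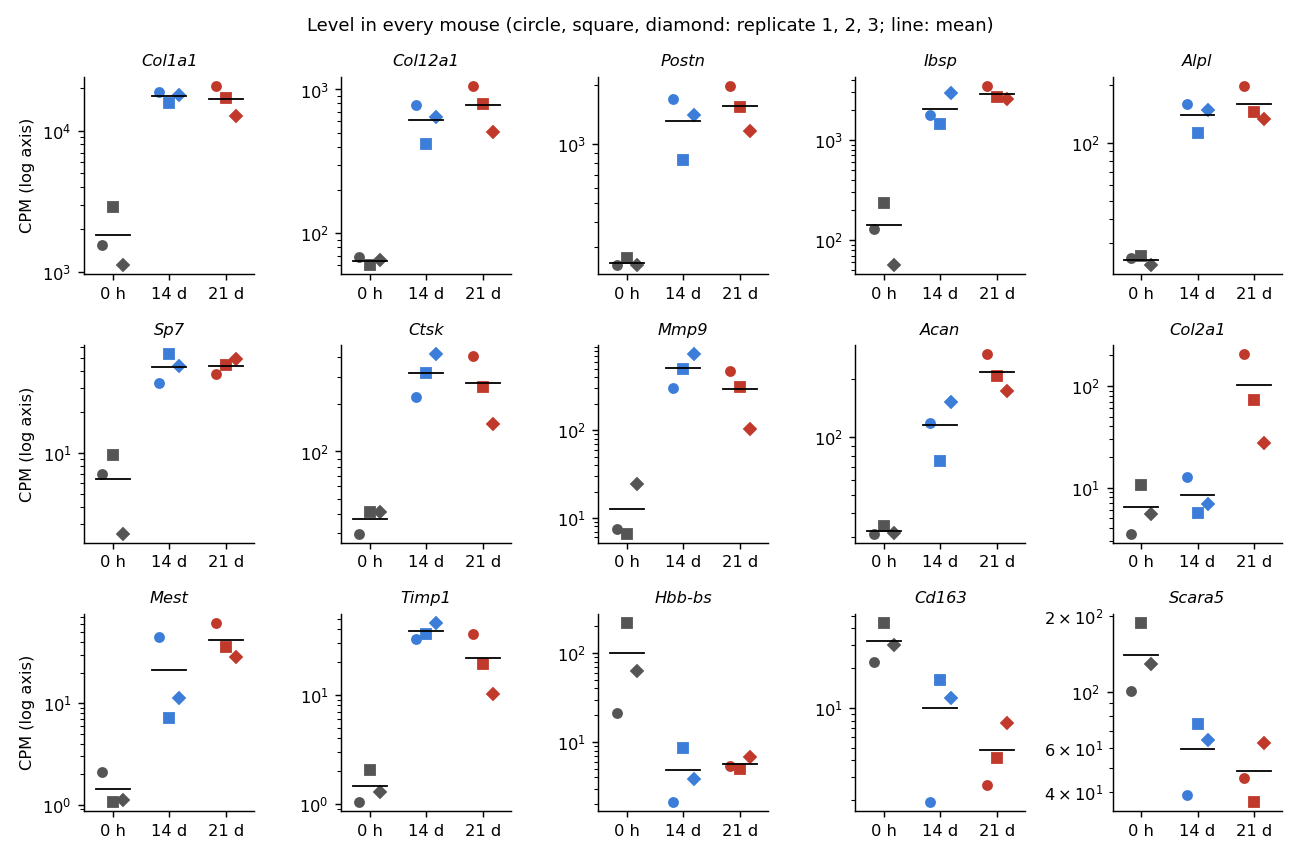
Level of 15 named genes in CPM, each on its own log axis, in the 3 mice at 0 h (grey), 14 d (blue) and 21 d (red), with the mean as a line. The 12 genes that rose are separated from 0 h in every 21 d mouse, among them only Sp7 has mouse 3 on top, and Col2a1 is above 0 h at 21 d while its 14 d mice lie within 5.66 to 12.7 CPM.

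Of the cartilage genes, 3 of the 14 genes tested rose and 0 fell, and values of the others lay on both sides of 0 (median log2 fold change 0.75). Col2a1 (chr15:97975602-98004695 in GRCm38), the fibrillar collagen of cartilage, had 3.52, 10.6 and 5.44 CPM at 0 h, 12.7, 5.66 and 6.93 CPM at 14 d and 204, 73.0 and 27.2 CPM at 21 d (log2 fold change 3.97, SE 0.80, adjusted p = 0.00425 against 0 h). Against 14 d the log2 fold change was 3.61 (95% interval 1.99 to 5.23), with an adjusted p of 0.526 in edgeR's test and 0.047 in DESeq2's. The 21 d mice differed more than 7-fold among themselves in this gene, mouse 1 being highest. For Acan, aggrecan, the large proteoglycan of cartilage, the levels were 31.4, 34.5 and 31.7 CPM at 0 h and 269, 208 and 173 CPM at 21 d, a log2 fold change of 2.74 (SE 0.43, adjusted p = 2.30e-04). Matn3 (chr12:8947929-8972028 in GRCm38), matrilin 3 of growing cartilage, had no count in any 0 h mouse and 58, 116 and 45 counts in the 21 d mice, or 5.37, 7.46 and 5.13 CPM (adjusted p = 0.00819). Set against 3 counts in each 0 h mouse, it was at least 17.3-fold higher at 21 d.

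Col9a2, which binds type II collagen fibrils, had 3.28, 6.18 and 0.640 CPM at 0 h, 2.47, 4.43 and 3.47 CPM at 14 d and 45.4, 13.7 and 13.2 CPM at 21 d, with an adjusted p of 0.0654 against 0 h. Hapln1, the link protein of aggrecan, had 52.4, 39.4 and 18.8 CPM at 21 d against 3.20, 4.58 and 5.76 CPM (adjusted p = 0.0513). For both, every 21 d mouse was above every 0 h mouse. Sox9, the chondrocyte transcription factor, had a log2 fold change of 0.34 (adjusted p = 0.971), and Col10a1 of hypertrophic cartilage had 14.8, 15.3 and 14.9 CPM at 0 h and 2.22, 0.322 and 16.9 CPM at 21 d (adjusted p = 0.881). Prg4, lubricin of joint surfaces, with 163, 615 and 76.8 CPM at 0 h and 52.0, 44.8 and 123 CPM at 21 d, was not called (log2 fold change -1.97, 95% interval -3.75 to -0.18, adjusted p = 0.438). Comp, a matrix protein of cartilage and tendon, had 112, 133 and 100.3 CPM at 0 h and 122, 103 and 104 CPM at 21 d and did not pass the test (log2 fold change -0.08, 95% interval -0.90 to 0.75, adjusted p = 1). Without 0 h mouse 1, 1 of the cartilage genes rose. The adjusted p with 1 mouse fewer was 0.0629 to 0.0878 for Col2a1 without 0 h mouse 1 or 21 d mouse 1 and 0.0555 to 0.0758 for Matn3 without 0 h mouse 1 or 2, and in the later campaign alone it was 0.0687 for Matn3. Acan passed the test whichever of the 6 mice was left out.

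Few members of the signalling lists passed the test, but few of all genes tested did (1.73% higher and 0.21% lower). In the BMP pathway, 1 of the 20 genes tested (5%) rose and 0 fell (median 0.28). Fst, follistatin, which binds activins and BMPs, had 40.3, 37.6 and 33.6 CPM in the 0 h mice and 101, 58.8 and 70.5 CPM in the 21 d mice (log2 fold change 1.04, SE 0.27, adjusted p = 0.037). Id1, a direct target of BMP signals, with 69.8, 74.3 and 36.8 CPM at 0 h and 104, 73.7 and 96.6 CPM at 21 d, was not called (log2 fold change 0.60, 95% interval -0.35 to 1.54, adjusted p = 0.905). Bmp5, a BMP ligand, had 60.3, 72.7 and 39.7 CPM at 0 h and 109, 82.6 and 84.0 CPM at 21 d and did not pass the test (log2 fold change 0.67, 95% interval -0.01 to 1.36, adjusted p = 0.56). In the Wnt pathway, 2 of the 32 genes tested (6.25%) rose and 0 fell (median 0.10). For Dkk3, a secreted member of the Dickkopf family, the levels were 96.2, 110.2 and 76.3 CPM at 0 h and 301, 236 and 247 CPM at 21 d, a log2 fold change of 1.47 (SE 0.29, adjusted p = 0.00338). Tcf7, a transcription factor of Wnt signals, was at 45.2, 30.4 and 26.6 CPM in the 21 d mice, against 17.2, 15.1 and 12.6 CPM in the 0 h mice (log2 fold change 1.18, SE 0.30, adjusted p = 0.0291). Both had all 21 d mice above all 0 h mice. Wnt4, a ligand of skin and nail matrix, with 158, 146 and 156 CPM at 0 h and 167, 154 and 157 CPM at 21 d, was not called (log2 fold change 0.06, 95% interval -0.28 to 0.39, adjusted p = 1). Wls, the carrier that lets Wnt ligands be secreted, had 129, 125 and 166 CPM at 0 h and 190.5, 171 and 131 CPM at 21 d and did not pass the test (log2 fold change 0.23, 95% interval -0.20 to 0.66, adjusted p = 0.961). In fits without single mice, the adjusted p was 0.115 to 0.478 for Fst without 0 h mouse 1, 2 or 3 or 21 d mouse 1 and 0.0555 to 0.379 for Tcf7 without 0 h mouse 1, 2 or 3 or 21 d mouse 1 or 2, and in the later campaign alone it was 0.123 for Tcf7. Dkk3 passed the test whichever of the 6 mice was left out.

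The IGF pathway was the only list with calls in both directions, 1 higher and 1 lower of 10 genes tested (1.73% and 0.21% of all genes tested). Igf2, the fetal growth factor that is imprinted and expressed from the paternal copy, had 65.6, 75.4 and 47.7 CPM in the 0 h mice and 31.95, 23.2 and 22.2 CPM in the 21 d mice (log2 fold change -1.29, SE 0.30, adjusted p = 0.0162). For Igfbp4, a binding protein that holds IGFs back, the levels were 156, 214 and 173 CPM at 0 h and 474, 310.2 and 239.5 CPM at 21 d, a log2 fold change of 0.92 (SE 0.22, adjusted p = 0.0194). Igf2 fell and Igfbp4 rose without overlap between the groups. Igfbp5, the main binding protein of bone and skin stroma, with 1079, 1233 and 623 CPM at 0 h and 2191, 1246 and 1367 CPM at 21 d, was not called (log2 fold change 0.71, 95% interval 0.02 to 1.40, adjusted p = 0.513). Igfbp2, another binding protein, had 344, 313 and 349 CPM at 0 h and 144, 230.0 and 309.7 CPM at 21 d and did not pass the test (log2 fold change -0.56, 95% interval -1.41 to 0.30, adjusted p = 0.887). Among digit patterning factors, 1 of the 22 genes tested rose (1.73% of all genes tested) and 0 fell (median log2 fold change 0.71). In 10 of the 22 every 21 d mouse was above every 0 h mouse (12.5% of all genes tested). Hoxd13, the homeobox gene of the digits, was at 47.0, 32.6 and 25.7 CPM in the 21 d mice, against 11.9, 16.7 and 13.6 CPM in the 0 h mice (log2 fold change 1.32, SE 0.29, adjusted p = 0.00863). Prrx1, a factor of limb mesenchyme, with 104, 97.9 and 75.2 CPM at 0 h and 162, 154 and 119.8 CPM at 21 d, was not called (log2 fold change 0.65, 95% interval 0.06 to 1.25, adjusted p = 0.446). En1, a factor of ventral limb ectoderm and of some fibroblasts, had 60.4, 58.5 and 34.1 CPM at 0 h and 77.6, 75.8 and 56.3 CPM at 21 d and did not pass the test (log2 fold change 0.45, 95% interval -0.28 to 1.19, adjusted p = 0.918). With 1 mouse left out, the adjusted p became 0.0731 to 0.1125 for Igf2 without 0 h mouse 1 or 2 or 21 d mouse 2 or 3, 0.11 to 0.469 for Igfbp4 without 0 h mouse 1 or 3 or 21 d mouse 1 and 0.0578 to 0.158 for Hoxd13 without 0 h mouse 1 or 3 or 21 d mouse 1, and in the later campaign alone it was 0.137 for Igfbp4 and 0.0607 for Hoxd13.

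Among epidermal keratins, those known from stressed and healing skin rose, and those of the differentiated layers did not pass the test. In all, 4 of the 14 genes tested rose and 0 fell (median log2 fold change -0.28). These libraries hold skin and nail together, so the rise cannot be placed in either. Krt6b, a keratin of wound-edge and nail-bed keratinocytes, had 821, 712 and 1023 CPM in the 0 h mice and 9262, 4138 and 1937 CPM in the 21 d mice (log2 fold change 2.59, SE 0.51, adjusted p = 0.00314). For Krt16, its usual partner, the levels were 1064, 838 and 1839.5 CPM at 0 h and 10015, 4442 and 2396 CPM at 21 d, a log2 fold change of 2.17 (SE 0.48, adjusted p = 0.0106). In each of them mouse 1 stood highest and mouse 3 lay nearest to the 0 h range. Krt6a, a close copy of Krt6b, was at 7667, 3789 and 2174 CPM in the 21 d mice, against 1396, 1364 and 1880.0 CPM in the 0 h mice (log2 fold change 1.55, SE 0.33, adjusted p = 0.00791). Krt17, a keratin of wounds and of skin appendages, had 264, 185 and 278 CPM in the 0 h mice and 926, 577 and 329 CPM in the 21 d mice (log2 fold change 1.33, SE 0.35, adjusted p = 0.0383). Krt6a and Krt6b share 40.0% and 42.4% of their 65-base windows with other genes, each other among them, so the split of reads between them is uncertain. Leaving out 1 mouse moved the adjusted p to 0.077 for Krt6b without 21 d mouse 1, 0.0892 to 0.26 for Krt16 without 0 h mouse 1 or 2 or 21 d mouse 1, 0.0649 to 0.285 for Krt6a without 0 h mouse 1 or 2 or 21 d mouse 1 and 0.0801 to 0.623 for Krt17 without 0 h mouse 1, 2 or 3 or 21 d mouse 1 or 2, and in the later campaign alone it was 0.072 for Krt6a and 0.0727 for Krt17.

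Krt1, the main keratin of the suprabasal epidermis, with 28676, 27326 and 28245 CPM at 0 h and 7660.4, 15339 and 23533 CPM at 21 d, was not called (log2 fold change -0.86, 95% interval -1.71 to -0.01, adjusted p = 0.535). Krt2, a keratin of the upper layers of thick skin, had 23159, 32379.8 and 19946 CPM at 0 h and 3063, 12446 and 25764 CPM at 21 d and did not pass the test (log2 fold change -0.87, 95% interval -1.87 to 0.13, adjusted p = 0.681). For Krt1 the 21 d mice were all below 0 h but ran over a 3-fold range, with mouse 1 lowest and mouse 3 highest, and for Krt2 mouse 3 lay inside the 0 h range. Of the genes of the cornified envelope, 0 of 35 genes passed in edgeR's test, 0 in DESeq2's and 0 in limma's (median log2 fold change -0.22). There were 5 at an unadjusted p under 0.05 (9.22% of all genes tested). Hrnr, hornerin of the granular layer, with 7069.9, 7554 and 8410.1 CPM at 0 h and 1735, 5865 and 5451 CPM at 21 d, was not called (log2 fold change -0.82, 95% interval -1.69 to 0.06, adjusted p = 0.62). Rptn, repetin of the cornified envelope, had 1294, 913 and 1834 CPM at 0 h and 899.8, 634 and 681 CPM at 21 d and did not pass the test (log2 fold change -0.87, 95% interval -1.85 to 0.12, adjusted p = 0.671). The basal keratinocyte genes Krt14 and Krt5 had 8464, 6278 and 5674 CPM and 2119, 2757 and 3081 CPM at 21 d, against 5171, 5562 and 6064 CPM and 3443, 3682 and 3618 CPM at 0 h, and passed no test (adjusted p = 0.929 and 0.446).

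The hard keratins of nail and hair had higher levels in the 21 d mice without calls: 0 of 16 genes passed in edgeR's test, 0 in DESeq2's and 0 in limma's. There were 8 at an unadjusted p under 0.05 (9.22% of all genes tested), and the median log2 fold change was 1.51. In 11 of the 16 every 21 d mouse was above every 0 h mouse (12.5% of all genes tested). Krt83, a hard keratin of the hair and nail cortex, with 2167, 1514 and 1272 CPM at 0 h and 7837, 3454 and 2862 CPM at 21 d, was not called (log2 fold change 1.51, 95% interval 0.28 to 2.75, adjusted p = 0.325). Krt81, another of the same family, had 1499.8, 1059 and 822 CPM at 0 h and 5872, 2756 and 2367 CPM at 21 d and did not pass the test (log2 fold change 1.70, 95% interval 0.36 to 3.04, adjusted p = 0.296). The transcripts listed for Krt83 belong to a gene named Krt87 in a later annotation, and it shares 13.2% of its 65-base windows with Krt81, Krt83 and Krt86. Krt81 shares 33.0% of its windows with Krt83, Krt86 and Krt87 of that annotation, so its counts are uncertain. Mouse 1 was highest in both, and the summed level of the list was 5575 to 9008 CPM at 0 h, 5231 to 21210.0 CPM at 14 d and 12578 to 30558 CPM at 21 d. A fit of the 6 libraries alone called 5 of them, namely Krt25, Krt33a, Krt33b, Krt34 and Krt81. Keratin-associated proteins fill the space between hard keratin filaments. Of their 37 genes tested, 1 rose (2.70%, near the 1.73% of all genes tested) and 0 fell (median log2 fold change 1.31). Krtap13, a member of this family, had 90.1, 135 and 148 CPM in the 0 h mice and 1468, 822 and 588 CPM in the 21 d mice (log2 fold change 2.95, SE 0.57, adjusted p = 0.00296). Krtap13 passed with every mouse left out in turn, and 20.4% of its 65-base windows occur in 1 other gene. Krtap21-1, a keratin-associated protein rich in glycine and tyrosine, with 3372, 2374 and 1452 CPM at 0 h and 8848, 4652 and 5417 CPM at 21 d, was not called (log2 fold change 1.39, 95% interval 0.11 to 2.68, adjusted p = 0.456). Krtap3-3, a keratin-associated protein rich in sulfur, had 1100.0, 745 and 409 CPM at 0 h and 3866, 1974 and 1683 CPM at 21 d and did not pass the test (log2 fold change 1.74, 95% interval 0.54 to 2.94, adjusted p = 0.178). It shares 40.0% of its 65-base windows with Krtap3-1 and Krtap3-2, so its counts are uncertain too. For nail differentiation regulators, 0 of 9 genes passed in edgeR's test, 0 in DESeq2's and 0 in limma's, with 1 at an unadjusted p under 0.05. Log2 fold changes were 0.70 for Hoxc13 (adjusted p = 0.63) and 1.23 for S100a3 (adjusted p = 0.404).

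**Figure D3:**
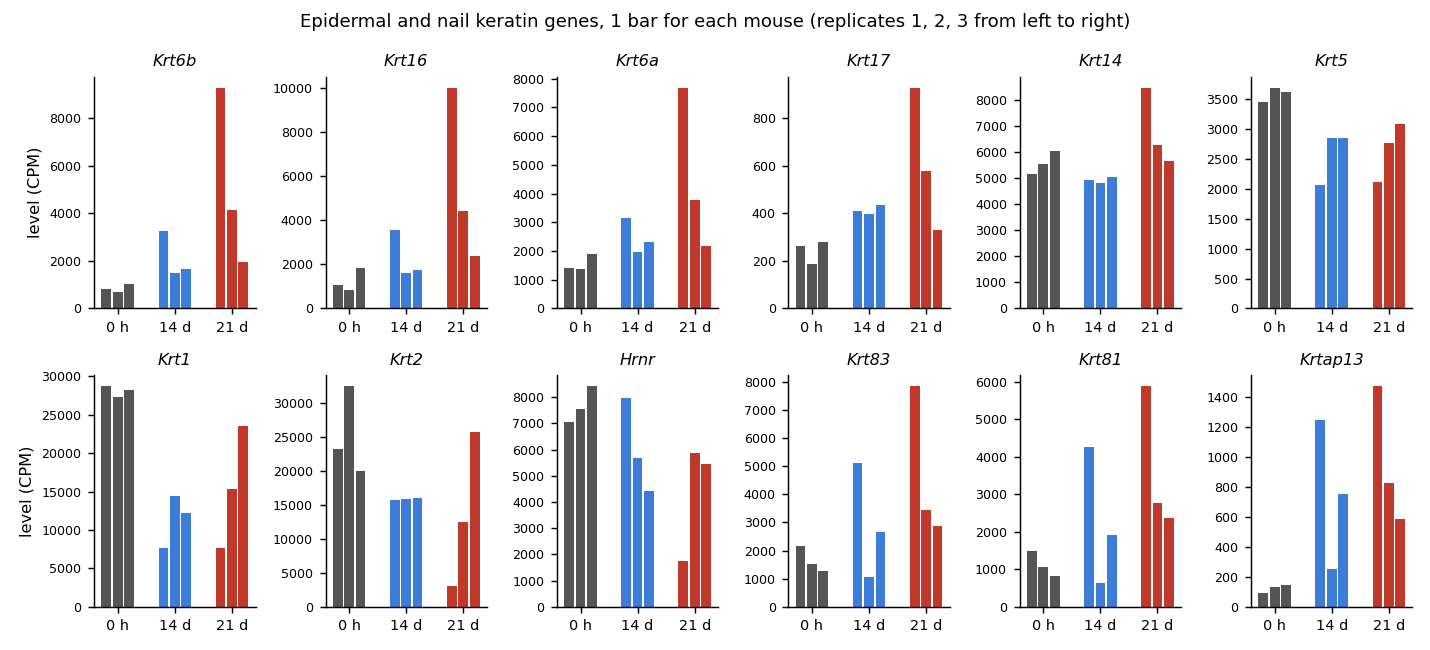
Level of 12 keratin and cornification genes in CPM, with 1 bar for each mouse at 0 h (grey), 14 d (blue) and 21 d (red) and axes from 0. Among the red bars, mouse 1 (left) is highest for Krt6b, Krt16, Krt6a, Krt17, Krt83, Krt81 and Krtap13 and lowest for Krt1, Krt2, Hrnr and Krt5.

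Lists for cell division, hypoxia and stress had no member past edgeR's test at 21 d. Of all genes tested, 1.94% passed it and 9.22% had an unadjusted p under 0.05. Among mitosis genes, 0 of 25 genes passed in edgeR's test, 0 in DESeq2's and 0 in limma's, with 0 at an unadjusted p under 0.05 (median log2 fold change 0.06). Among replication genes, 0 of 23 genes passed in edgeR's test, 0 in DESeq2's and 0 in limma's, with 1 at an unadjusted p under 0.05 (median 0.20). Mki67, a marker of cycling cells, with 267, 321 and 286 CPM at 0 h and 244, 279 and 311 CPM at 21 d, was not called (log2 fold change -0.07, 95% interval -0.62 to 0.49, adjusted p = 1). For Top2a, topoisomerase of dividing cells, and Pcna, the replication clamp, the values were 0.06 (95% interval -0.54 to 0.66) and -0.04 (95% interval -0.45 to 0.37). Rrm1, which makes deoxynucleotides, had -0.13 (adjusted p = 1). In hypoxia and glycolysis, 0 of 20 genes passed in edgeR's test, 0 in DESeq2's and 0 in limma's, with 4 at an unadjusted p under 0.05 (median 0.34). Of heat shock genes and chaperones, 0 of 11 genes passed in edgeR's test, 0 in DESeq2's and 0 in limma's, with 2 at an unadjusted p under 0.05 (median 0.06). For the circadian clock, 0 of 16 genes passed in edgeR's test, 2 in DESeq2's and 0 in limma's, with 2 at an unadjusted p under 0.05 (median -0.01). DESeq2 called Cry1 (1.14, adjusted p = 0.0237) and Nr1d1 (-1.005, adjusted p = 0.0218), with its log2 fold changes in parentheses. Of interferon-stimulated genes, 0 of 11 genes passed in edgeR's test, 0 in DESeq2's and 0 in limma's, with 0 at an unadjusted p under 0.05 (median 0.16). Abundant members of these 4 lists had log2 fold changes of 0.18 for the glycolytic enzyme Pkm, -0.04 for Eno1, 0.06 for the chaperone Hspa8, 0.34 for Hspa5 of the endoplasmic reticulum, 0.16 and -0.08 for the clock genes Bhlhe40 and Clock, and -0.03 for the interferon-stimulated gene Ifit2.

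Immediate early genes, which respond within minutes to injury and to handling of tissue, had no call at 21 d. Of 24 genes, 0 passed in edgeR's test, 0 in DESeq2's and 0 in limma's. There were 7 at an unadjusted p under 0.05 (9.22% of all genes tested), and the median log2 fold change was -0.21. In 7 of the 24, Egr1, Egr2, Fosb, Jun, Btg2, Klf2 and Zfp36, every 21 d mouse was below every 0 h mouse (10.2% of all genes tested). Fos, the AP-1 subunit, had 556, 455 and 779.9 CPM at 0 h, 59.2, 41.8 and 101 CPM at 14 d and 521, 185 and 144 CPM at 21 d (-1.075 against 0 h, adjusted p = 0.401). 21 d mouse 1 lay inside the 0 h range, and all 3 mice were above the 14 d mice. Klf4, a factor of keratinocyte differentiation that also responds early, had 1403, 1332 and 794 CPM at 0 h and 1006, 981 and 1635 CPM at 21 d and did not pass the test (log2 fold change 0.04, 95% interval -0.81 to 0.89, adjusted p = 1). The summed level of the list was 4131 to 4756 CPM at 0 h, 1972 to 2506 CPM at 14 d and 2902 to 3956 CPM at 21 d.

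Some inflammatory genes were still above 0 h at 21 d in part of the mice, and 2 of the 15 genes tested rose and 0 fell (median log2 fold change 2.37, or 2.005 with genes without a 0 h count set to their lower bound). Cxcl2, a chemokine that draws neutrophils, had 0, 0.426 and 0.960 CPM in the 0 h mice and 1.39, 35.1 and 2.39 CPM in the 21 d mice (log2 fold change 5.06, SE 1.26, adjusted p = 0.0267). For Il1b, interleukin 1 beta, the levels were 0.240, 0.107 and 1.28 CPM at 0 h and 3.98, 16.6 and 0.684 CPM at 21 d, a log2 fold change of 3.93 (SE 1.03, adjusted p = 0.0393). Mouse 2 stood apart, with levels more than 4 times those of either other 21 d mouse for both genes. Mouse 3 lay inside the 0 h range for Il1b. The neutrophil genes S100a8 and S100a9, subunits of calprotectin that wound keratinocytes also express, showed another order. S100a8 had 0, 0.213 and 0 CPM at 0 h, from 2 counts in all, and 22.4, 9.59 and 0.342 CPM at 21 d (adjusted p = 0.00214), a ratio of summed counts of 158 (95% exact counting interval 43.4 to 1308). That interval covers counting error only and leaves out the wide spread between the 21 d mice. S100a9 had 0.720, 0.640 and 0.800 CPM at 0 h and 57.5, 26.1 and 0.684 CPM at 21 d (log2 fold change 5.27, SE 0.99, adjusted p = 0.00214). Mouse 3 was at the 0 h level for S100a9, and mouse 1 was highest for both. Of the neutrophil list, 2 of the 9 genes tested rose and 0 fell, with Cxcr2 at -0.39 (adjusted p = 1) and Csf3r at 1.62 (adjusted p = 0.463). The adjusted p with 1 mouse fewer was 0.0742 to 0.747 for Cxcl2 without 0 h mouse 1, 2 or 3 or 21 d mouse 2 and 0.0648 to 0.54 for Il1b without 0 h mouse 1 or 2 or 21 d mouse 1 or 2, and in the later campaign alone it was 0.234 for Cxcl2, 0.181 for Il1b, 0.0685 for S100a8 and 0.0551 for S100a9. S100a8 and S100a9 passed the test whichever of the 6 mice was left out. Ptgs2 and Il11 had log2 fold changes of 1.62 and 0.24 and did not pass (adjusted p = 0.628 and 1).

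**Figure D4:**
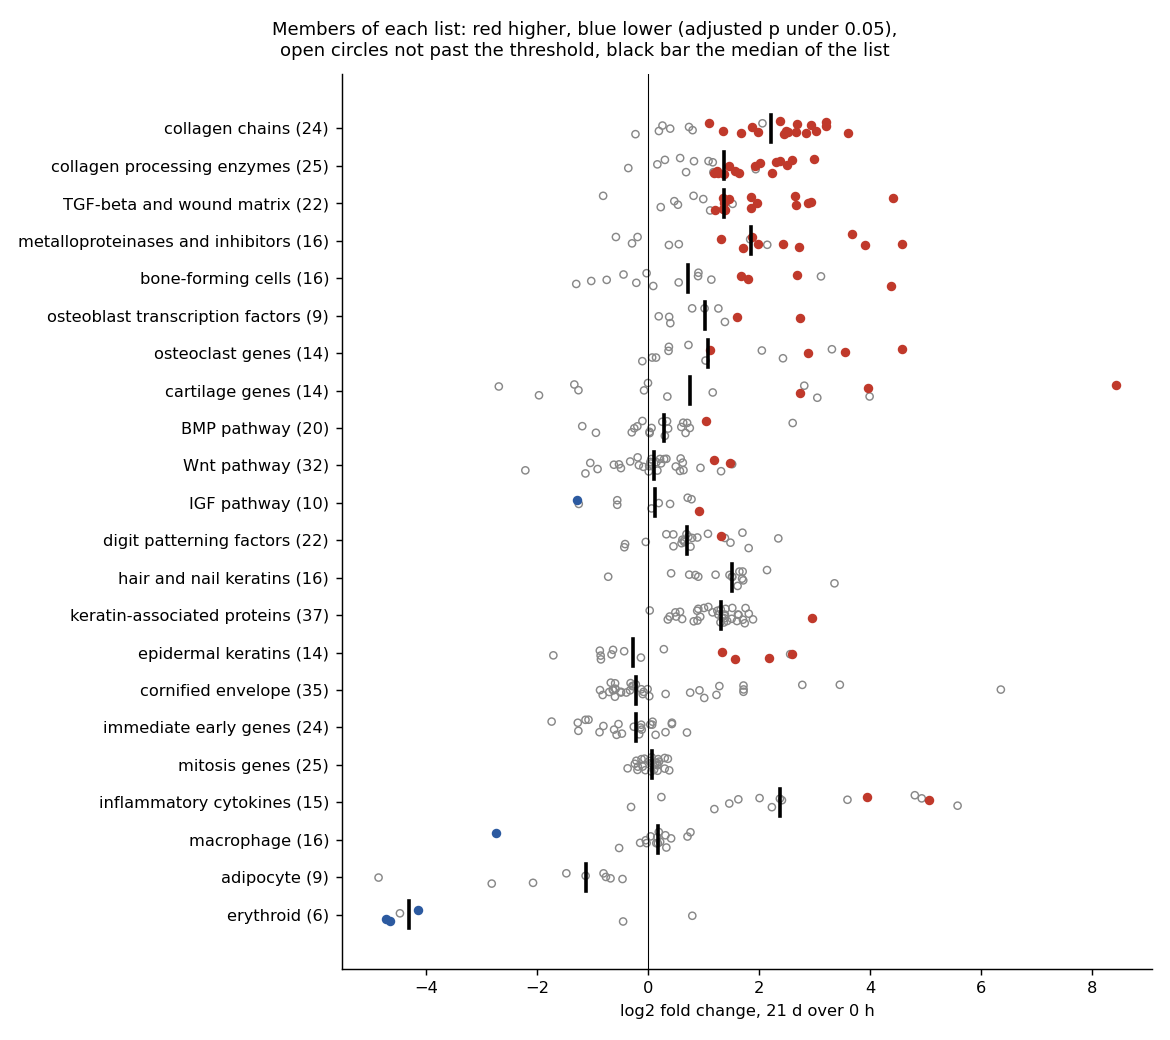
Log2 fold change, 21 d over 0 h, of each tested member of 22 lists, with genes that passed the test filled (red higher, blue lower), others open, the median as a black bar and the number tested in parentheses. Collagen chains (median 2.22), collagen processing enzymes (1.37), wound matrix (1.37) and proteinases (1.86) lie to the right with most members filled, mitosis genes lie around 0, and the erythroid list (median -4.31) lies far to the left.

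Among the genes that fell, those of red blood cells changed most, as 3 of 6 erythroid genes tested fell and 0 rose. Hba-a2, an alpha globin, had 32.9, 201 and 130.4 CPM in the 0 h mice and 4.45, 6.89 and 2.05 CPM in the 21 d mice (log2 fold change -4.73, SE 0.96, adjusted p = 0.00437). For Hbb-bs, a beta globin, the levels were 21.04, 220.2 and 62.7 CPM at 0 h and 5.37, 5.02 and 6.73 CPM at 21 d, a log2 fold change of -4.15 (SE 0.76, adjusted p = 0.00171). The 0 h mice differed widely, mouse 2 being highest and mouse 1 lowest for both, while the 21 d mice were uniformly low. Alas2, the first enzyme of heme synthesis in red cell precursors, had 1.92, 15.3 and 5.76 CPM at 0 h and 0.0926, 0.322 and 0.456 CPM at 21 d (log2 fold change -4.66, SE 1.23, adjusted p = 0.0417). The globins have near-identical copies, with 86.5% of the 65-base windows of Hba-a2 found in Hba-a1 and 52.2% of those of Hbb-bs in Hbb-bt, so the single genes are uncertain. Hbb-bt had 7.60, 38.7 and 9.76 CPM at 0 h and 0, 0.837 and 1.71 CPM at 21 d (adjusted p = 0.163), and Bpgm, a red cell enzyme found in other cells too, had 0.79 (adjusted p = 0.218). In fits without single mice, the adjusted p was 0.0551 to 0.353 for Alas2 whichever mouse was left out, and in the later campaign alone it was 0.0964 for Alas2. Hba-a2 and Hbb-bs passed the test whichever of the 6 mice was left out. The list summed to 115 to 535 CPM at 0 h and 83.7 to 128 CPM at 21 d, Bpgm included, and to 67.8 to 478 CPM and 11.7 to 14.1 CPM without Bpgm.

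Of macrophage markers, 1 of 16 fell (0.21% of all genes tested) and 0 rose, with a median log2 fold change of 0.17. The other lower genes given here were named for the size of their fall. Cd163, the hemoglobin scavenger receptor of resident macrophages, had 22.3, 44.2 and 29.9 CPM in the 0 h mice and 2.59, 4.18 and 7.75 CPM in the 21 d mice (log2 fold change -2.74, SE 0.60, adjusted p = 0.00976). The other 15 macrophage genes tested did not pass, among them Arg1 (0.41). For F13a1, the coagulation factor XIII chain that resident macrophages express, the levels were 37.7, 65.2 and 29.8 CPM at 0 h and 13.8, 10.8 and 12.996 CPM at 21 d, a log2 fold change of -1.82 (SE 0.48, adjusted p = 0.0396). Scara5, a ferritin receptor of fibroblasts, was at 45.7, 36.6 and 62.8 CPM in the 21 d mice, against 101, 188 and 129 CPM in the 0 h mice (log2 fold change -1.53, SE 0.30, adjusted p = 0.00321). All 21 d mice were below all 0 h mice for these genes. Nov, a matricellular protein of the CCN family, had 59.6, 78.9 and 69.8 CPM in the 0 h mice and 6.67, 6.31 and 32.7 CPM in the 21 d mice (log2 fold change -2.20, SE 0.57, adjusted p = 0.0334). Myoc, myocilin, a secreted glycoprotein, had 67.8, 78.8 and 46.7 CPM in the 0 h mice and 0.833, 5.47 and 24.1 CPM in the 21 d mice (log2 fold change -2.70, SE 0.72, adjusted p = 0.0438). For Coch, cochlin, a secreted protein, the levels were 33.2, 22.2 and 9.92 CPM at 0 h and 4.63, 4.12 and 6.95 CPM at 21 d, a log2 fold change of -2.07 (SE 0.48, adjusted p = 0.0155). Mouse 3 at 21 d was highest of the 3 for Nov, Myoc and Coch. Abca8b (-1.54), a lipid transporter, Galnt15 (-1.81), a glycosyltransferase, and Slc16a13 (-1.34), a monocarboxylate transporter, also fell.

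For Aox4, an aldehyde oxidase of skin, the levels were 59.1, 44.6 and 57.6 CPM at 0 h and 6.20, 16.3 and 21.7 CPM at 21 d, a log2 fold change of -1.87 (SE 0.34, adjusted p = 0.00159). Aldh3a1, an aldehyde dehydrogenase of barrier epithelia, was at 10.4, 19.9 and 29.6 CPM in the 21 d mice, against 64.5, 59.9 and 47.5 CPM in the 0 h mice (log2 fold change -1.53, SE 0.38, adjusted p = 0.0284). Plekha6, a protein of cell junctions, had 28.2, 30.8 and 35.8 CPM in the 0 h mice and 6.20, 8.37 and 14.1 CPM in the 21 d mice (log2 fold change -1.73, SE 0.29, adjusted p = 5.43e-04). For Aox4, Aldh3a1 and Plekha6 mouse 1 was lowest and mouse 3 highest at 21 d. With 1 mouse left out, the adjusted p became 0.0585 to 0.128 for Cd163 without 0 h mouse 2 or 21 d mouse 1 or 2, 0.0817 to 0.289 for F13a1 without 0 h mouse 1 or 2 or 21 d mouse 1, 2 or 3, 0.0758 to 0.343 for Nov without 0 h mouse 1, 2 or 3 or 21 d mouse 1 or 2, 0.0788 to 0.285 for Myoc without 0 h mouse 1, 2 or 3 or 21 d mouse 1 or 2 and 0.11 to 0.162 for Coch without 0 h mouse 1 or 21 d mouse 1 or 2, and in the later campaign alone it was 0.087 for Nov and 0.101 for Myoc. Scara5 passed the test whichever of the 6 mice was left out. Leaving out 1 mouse moved the adjusted p to 0.0501 to 0.325 for Aldh3a1 without 0 h mouse 1, 2 or 3 or 21 d mouse 1 or 2, 0.0539 to 0.491 for Abca8b without 0 h mouse 1, 2 or 3 or 21 d mouse 1 or 2, 0.0947 to 0.366 for Galnt15 without 0 h mouse 1, 2 or 3 or 21 d mouse 1 or 2 and 0.095 to 0.352 for Slc16a13 without 0 h mouse 1, 2 or 3 or 21 d mouse 1 or 3, and in the later campaign alone it was 0.0508 for Aox4, 0.0545 for Aldh3a1, 0.163 for Abca8b and 0.131 for Slc16a13. Aox4 and Plekha6 passed the test whichever of the 6 mice was left out.

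Among the 15 genes that rose most, 6 belong to none of the lists. Mest (chr6:30723547-30748465 in GRCm38), an imprinted gene of growing mesenchyme, had 2.08, 1.066 and 1.1199 CPM in the 0 h mice and 62.3, 35.8 and 28.5 CPM in the 21 d mice (log2 fold change 4.84, SE 0.77, adjusted p = 3.09e-04). Its 14 d mice had 45.4, 7.10 and 11.3 CPM, and 20.6% of its 65-base windows occur in Copg2, whose exons overlap it. C1qtnf3, a secreted protein of the C1q and TNF family, had 1.36, 2.77 and 2.40 CPM in the 0 h mice and 67.3, 55.5 and 25.3 CPM in the 21 d mice (log2 fold change 4.51, SE 0.81, adjusted p = 0.00148). For Prss35, a serine protease-like secreted protein, the levels were 1.1200, 2.03 and 0.480 CPM at 0 h and 28.0, 22.9 and 13.6 CPM at 21 d, a log2 fold change of 4.10 (SE 0.93, adjusted p = 0.0127). The 0 h mice were at or below 2.77 CPM for all 3 genes, and every 21 d mouse was at least at 13.6 CPM. Plekhg4, an exchange factor of small GTPases, was at 15.9, 11.8 and 5.47 CPM in the 21 d mice, against 0.800, 0.107 and 0.640 CPM in the 0 h mice (log2 fold change 4.37, SE 0.93, adjusted p = 0.00709). Bcat1, the cytosolic enzyme that transfers amino groups from branched-chain amino acids, had 0.960, 0.320 and 0.960 CPM in the 0 h mice and 14.5, 11.8 and 8.09 CPM in the 21 d mice (log2 fold change 3.92, SE 0.90, adjusted p = 0.014). For Clec4d, a C-type lectin of myeloid cells, the levels were 0.800, 0.746 and 0.320 CPM at 0 h and 6.85, 16.8 and 2.28 CPM at 21 d, a log2 fold change of 3.71 (SE 0.88, adjusted p = 0.0188). The adjusted p with 1 mouse fewer was 0.077 to 0.106 for Prss35 without 0 h mouse 1 or 3 or 21 d mouse 1, 0.0565 to 0.0696 for Plekhg4 without 0 h mouse 2 or 21 d mouse 1, 0.0654 to 0.11 for Bcat1 without 0 h mouse 1, 2 or 3 or 21 d mouse 1 and 0.0868 to 0.174 for Clec4d without 0 h mouse 1, 2 or 3 or 21 d mouse 2, and in the later campaign alone it was 0.0727 for Clec4d. Mest and C1qtnf3 passed the test whichever of the 6 mice was left out.

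Markers of other cell types are given beside these results. Of fibroblast markers, Lum rose (237, 239 and 248 CPM at 0 h, 1545, 1047 and 558 CPM at 21 d, log2 fold change 2.121, SE 0.43, adjusted p = 0.00475), while Dcn had -1.013, Gsn -1.009 and the defining marker Pdgfra 0.11, none of which passed. Over the 9 fibroblast markers the median log2 fold change was -0.93, 5 had every 21 d mouse below every 0 h mouse (10.2% of all genes tested), 7 had an unadjusted p under 0.05 (9.22% of all), and 0 passed as lower. The list summed to 2432 to 2900.4 CPM at 0 h and 2146 to 2582 CPM at 21 d, and to 2184 to 2661 CPM and 1038 to 1699.5 CPM without Lum. Of tendon and joint markers, Fmod rose (log2 fold change 1.77, SE 0.45, adjusted p = 0.032), and Scx, Tnmd and Thbs4 had 1.010, -0.36 and -0.81 without passing. Of Schwann cell markers, Mal, a membrane protein that epithelia also express, rose (log2 fold change 1.083, SE 0.28, adjusted p = 0.032), and the defining marker Sox10 had a log2 fold change of -1.46 (adjusted p = 0.628). For endothelial genes, 0 of 17 genes passed in edgeR's test, 0 in DESeq2's and 0 in limma's, with 3 at an unadjusted p under 0.05. For smooth muscle and pericyte genes, 0 of 12 genes passed in edgeR's test, 2 in DESeq2's and 0 in limma's, with 3 at an unadjusted p under 0.05. The calls by DESeq2 were Des (-3.66, adjusted p = 0.0405) and Pdgfrb (1.13, adjusted p = 0.0245). In edgeR's fit, log2 fold changes were 0.09 for Pecam1, 0.94 for Cdh5, -0.53 for Vwf, -0.20 for Rgs5, 0.04 for Acta2 and -0.97 for Myh11. In fits without single mice, the adjusted p was 0.0734 for Lum without 21 d mouse 1, 0.0737 to 0.277 for Fmod without 0 h mouse 1, 2 or 3 or 21 d mouse 1 or 2 and 0.0506 to 0.666 for Mal without 0 h mouse 1, 2 or 3 or 21 d mouse 1 or 2, and in the later campaign alone it was 0.0533 for Fmod and 0.16 for Mal.

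Of adipocyte genes, 0 of 9 genes passed in edgeR's test, 2 in DESeq2's and 0 in limma's (median log2 fold change -1.13). There were 6 at an unadjusted p under 0.05 (9.22% of all genes tested). All 21 d mice were below all 0 h mice in 6 of the 9 (10.2% of all genes tested). DESeq2's calls were Adipoq (-5.22, adjusted p = 0.0122) and Cfd (-2.81, adjusted p = 0.0274). Adipoq, the adiponectin gene, had 1.60, 1.60 and 3.84 CPM at 0 h and 0, 0 and 0.228 CPM at 21 d (adjusted p = 0.084), and Scd1 and Fabp4 had -1.13 and -0.80. In the eccrine gland list, 0 of 7 genes passed in edgeR's test, 0 in DESeq2's and 0 in limma's, with 3 at an unadjusted p under 0.05 (median -1.012). In 5 of the 7 every 21 d mouse was below every 0 h mouse (10.2% of all genes tested). The log2 fold change was -1.012 for Slc12a2 and -0.77 for the water channel Aqp5. Skeletal muscle genes summed to 7.44 to 117 CPM at 0 h, with 0 h mouse 2 highest, and 6.58 to 7.75 CPM at 21 d, and 0 of 6 genes passed in edgeR's test, 0 in DESeq2's and 0 in limma's, with 2 at an unadjusted p under 0.05. The actin gene Acta1 was at 0.160, 26.01 and 0 CPM at 0 h and 0.556, 0.193 and 0.114 CPM at 21 d. Lymphocyte genes were near the limit of detection, and 0 of 2 genes passed in edgeR's test, 0 in DESeq2's and 0 in limma's, with 0 at an unadjusted p under 0.05. Cd3e was at 0 counts in all 6 libraries, and the log2 fold change was -0.94 for Cd3d (adjusted p = 1). In the antigen-presenting cell list, 0 of 8 genes passed in edgeR's test, 0 in DESeq2's and 0 in limma's, with 1 at an unadjusted p under 0.05, with log2 fold changes of -0.47 for Cd74, -0.55 for H2-Ab1 and -1.65 for Cd207 of Langerhans cells. Of melanocyte genes, 0 of 3 genes passed in edgeR's test, 0 in DESeq2's and 0 in limma's, with 0 at an unadjusted p under 0.05. The log2 fold change was -0.38 for Tyr and 0.52 for Mitf. Of basal keratinocyte genes, 0 of 6 genes passed in edgeR's test, 0 in DESeq2's and 0 in limma's, with 1 at an unadjusted p under 0.05, and Trp63 had a log2 fold change of -0.17. The part of these shifts in the results above was not tested.

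Among the called genes, the 3 mice at 21 d were not equally far from 0 h. Among the 239 higher genes, mouse 1 had the highest level of the 3 in 220, mouse 2 in 14 and mouse 3 in 5, and mouse 3 had the lowest level in 208. Among the 29 lower genes, mouse 1 was lowest in 20 and mouse 3 highest in 24. These genes were chosen with the values of the same mice, and the order over all genes tested is not given here. Mice 1 and 2 carry the same date and mouse 3 a date more than a month earlier, so mouse and date cannot be told apart. The same order held for Col1a1, Lum, Krt6b and Mmp9, and a different one for Sp7, Cxcl2 and Spp1. The summed level of osteoclast genes was 1583, 1125 and 610.4 CPM in mice 1, 2 and 3, and that of genes of bone-forming cells 4344, 3384 and 3486 CPM, most of it Ibsp. The calls above rest on all 3 mice together, and without 21 d mouse 3 the count was 316, of which 258 were higher and 58 lower.

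The comparisons of 21 d with 14 d and 7 d share the 21 d mice with the one above. Against 14 d, 0 genes passed edgeR's test at 21 d (0% of the genes tested), while 270 had an unadjusted p under 0.05, and the smallest adjusted p was 0.526. DESeq2's test called 5 and the later campaign alone 1. The genes called by DESeq2 were Col2a1, described above, Fos, which was higher at 21 d, and Ccng1, H2-Aa and Gvin1, which were lower (adjusted p = 0.047, 0.0318, 0.047, 0.0142 and 2.28e-22). H2-Aa, a class II antigen-presenting gene, had 31.6, 29.3 and 30.9 CPM at 14 d and 10.1, 12.9 and 13.7 CPM at 21 d. Ccng1, a target of p53, had 45.7, 64.7 and 80.4 CPM at 14 d and 33.3, 35.4 and 21.9 CPM at 21 d, and it also fell against 0 h (log2 fold change -1.106, SE 0.24, adjusted p = 0.00863). Gvin1, an interferon-inducible GTPase with near copies, had 12.2, 11.6 and 5.02 CPM at 14 d and 0 in all 21 d mice. Its log2 fold change was -23.7 by DESeq2 and -9.09 in edgeR's fit of the whole series, which did not call it. With 0 in all 21 d mice, neither value measures the size of the fall, and the small DESeq2 p rests on such a group. Gvin1 was also the gene called within the later campaign (adjusted p = 0.0418). Median log2 fold changes of 21 d over 14 d were 0.45 for collagen chains, -0.16 for bone-forming cells, -0.23 for osteoclast genes, 0.48 for cartilage genes and -0.96 for inflammatory cytokines.

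Against 7 d, 133 genes were higher at 21 d (0.964% of those tested) and 68 lower (0.493%). Among collagen chains, 14 of 24 were higher and 0 lower, and 5 of the osteoclast genes, Ctsk, Acp5, Mmp9, Tnfrsf11a and Itgb3, were lower and 0 higher. Adamts18, a matrix proteinase, had a lowest, median and highest level of 0, 0.317 and 1.04 CPM over the 6 mice at 7 d and 5.001, 6.95 and 12.9 CPM at 21 d (log2 fold change 4.46, SE 0.91, adjusted p = 0.00754). C1qtnf3 had 0, 3.16 and 6.03 CPM at 7 d, given in the same way (log2 fold change 3.87, SE 0.61, adjusted p = 7.09e-04), and Lrrc17, a secreted regulator of osteoclasts, 3.08, 8.50 and 20.4 CPM (log2 fold change 2.61, SE 0.49, adjusted p = 0.00339). The 21 d mice were above the highest 7 d mouse in each. Prss35 and Bglap2, a copy of the osteocalcin gene, were the others with the largest rises (log2 fold change 2.93, SE 0.69, adjusted p = 0.0239, and log2 fold change 2.70, SE 0.59, adjusted p = 0.0138). Bglap2 shares 80.3% of its 65-base windows with Bglap and Bglap3, so its counts are uncertain, and it was not called against 0 h. Mmp3, the stromelysin of wound stroma, fell from a lowest, median and highest level of 66.5, 261 and 629.6 CPM at 7 d to 16.4, 11.1 and 6.73 CPM at 21 d (log2 fold change -4.72, SE 0.75, adjusted p = 7.58e-04). Lcn2, an iron-binding protein of inflamed epithelium, had 4.44, 9.46 and 27.7 CPM at 7 d and 1.30, 0.322 and 0 CPM at 21 d (log2 fold change -4.37, SE 0.85, adjusted p = 0.00492). Sfrp4, a secreted Wnt inhibitor, fell from 21.7, 41.97 and 105 CPM, given likewise, to 2.96, 8.04 and 5.47 CPM (log2 fold change -3.27, SE 0.45, adjusted p = 1.39e-04), and Serpinb3c, an epidermal protease inhibitor, and Ccl19, a chemokine, fell by 3.39 and 3.09 on the log2 scale (adjusted p = 1.61e-04 and 0.0317). Of the 6 mice at 7 d, 3 were left feet. Without them the counts were 87 higher and 125 lower, without 21 d mouse 1 or 2 the calls were 45 or 82 in all, in the later campaign alone 958 genes passed, and in a fit of the 2 times alone 64.

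Over the 9 times, the genes that rose at 21 d had their highest mean level at 21 d in 150 of 239 cases, at 14 d in 52 and at 7 d in 20, an order that their choice at 21 d favours. Ibsp, Alpl, Acan, Col5a1 and Mest were highest at 21 d, Cthrc1, Col1a1 and Lox at 14 d, Mmp9, Ctsk and Atp6v0d2 at 7 d, Timp1 and Mmp13 at 3 d, and Cxcl2 and Il1b at 24 h. The summed level of osteoclast genes at 7 d had a lowest, median and highest value of 1927, 2959 and 5060.0 CPM, above the 610.4 to 1583 CPM of 21 d, and that of genes of bone-forming cells 1572, 1985 and 2348 CPM, below the 3384 to 4344 CPM of 21 d.

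**Figure D5:**
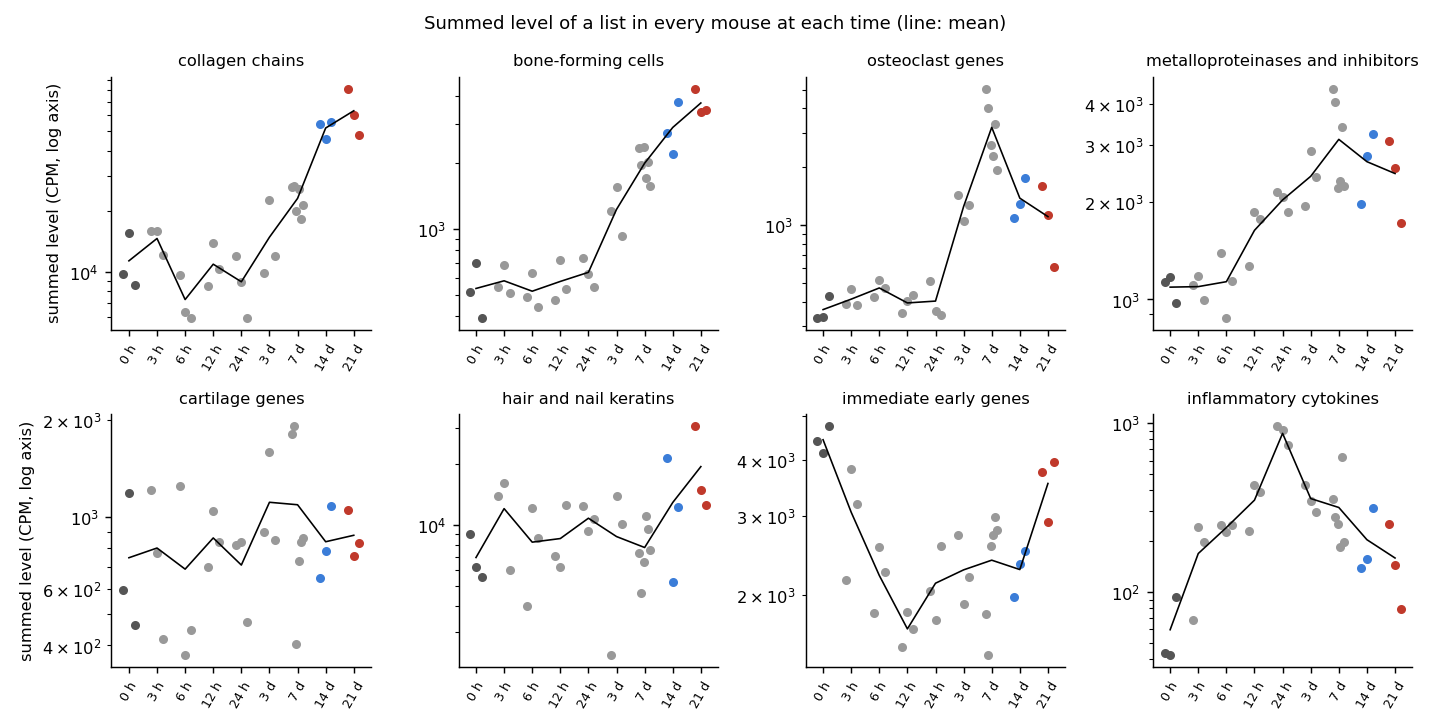
Summed level of 8 lists in CPM on log axes, with 1 point for each mouse at each of the 9 times (0 h dark grey, 14 d blue, 21 d red, others light grey) and a line through the means. Collagen chains and bone-forming cells end at their highest mean at 21 d (the latter mostly Ibsp), osteoclast genes peak at 7 d and stay above 0 h at 21 d, immediate early genes return to 2902 to 3956 CPM, and cytokines peak at 24 h.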

How the data were processed

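RNA was measured in 30 digit tips, of which 3 at 0 h and 3 at 21 d enter the main comparison. The authors ran 65-base single-end LM-Seq of polyadenylated RNA and deposited expected counts and TPM per gene, which the submitters' notes credit to RSEM 1.2.3 on mm10 after CASAVA 1.8.2. Reads could match several places, and strand use is not given in the sources used here, so that near copies and overlapping genes are uncertain.

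The deposited expected counts (78.1% whole, within a tolerance of 1e-09) were rounded. edgeR 4.0.16 in R 4.3.3 was fitted to all 30 mice, which share the estimate of spread (common biological coefficient of variation 0.328), with TMM factors, filterByExpr (13793 of 20321 genes, 99.9% of counts) and quasi-likelihood tests, adjusted by Benjamini and Hochberg with a threshold of 0.05. SE is the log2 fold change over the square root of F, and intervals are 95%. The deposited TPM values served for levels by length and, as log2(TPM + 1), for limma 3.58.1. Zero groups were set to 3 counts per library, and ratios and bounds cover counting error only. Alternatives were DESeq2 1.42.0, other filters, campaign, samples, depth and each mouse left out. The code was tested on simulated data. Promoters came from RefSeq and positions from GENCODE on GRCm38.

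The genes and lists were chosen with earlier results of these data known. Named were the 15 largest rises and falls among called genes whose higher group averaged 5 CPM or more and whose groups did not overlap, up to 4 called members per direction and the 2 uncalled members with the highest CPM of each list, and 5 per direction against 7 d by the same rule. Some genes that this rule names are not reported here. All other genes named were chosen after their values were seen.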

Additional observations from a re-analysis of the deposited data

How the results depend on the processing

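Of 268 genes called at 21 d against 0 h (239 higher, 29 lower), a threshold of 0.01 kept 136 (128 and 8), a fit of the 6 libraries alone called 463 (382 and 81), and limma on log2(TPM + 1) called 139 (118 higher). Lower genes numbered 62 with campaign as a covariate, 46 without the left-foot mice and 65 by DESeq2. Leaving out each mouse gave 106 to 316 calls, 99 to 258 higher and 7 to 58 lower. The cause of these shifts was not tested, beyond the fewer samples in some fits. Other size factors, filters and equal depth stayed within 1.5 times. Against 14 d, 0 became 1 in the later campaign and 5 by DESeq2. Against 7 d, 201 became 81 at 0.01, 564 with the covariate, 958 in the later campaign, 64 in 2 times alone, 399 by DESeq2 (182 higher, 217 lower) and 130 by limma (60 and 70). It ran from 45 to 222 with 1 mouse left out, and the split of 133 higher and 68 lower became 95 and 70 with DESeq2 size factors. Without the left-foot mice it became 87 and 125, so the balance of higher and lower genes against 7 d turned there, by DESeq2 and by limma. Each of the 268 genes called at 21 d against 0 h kept its direction in every alternative that tested it. These alternatives reuse the same libraries or some of them, so this is no separate support.

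No paired analysis was possible because the labels give no replicate numbers that groups share. With 3 mice a side and totals from 6094594 counts, genes under about 1 CPM rest on few counts, and their folds are imprecise.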

Other observations

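Of the called genes, 6 that act in or on the secretory pathway were picked after their values were seen, with no list or test behind the choice. Ssr1 and Surf4, which act in entry to and export from the endoplasmic reticulum, had 0.60 and 0.67 (adjusted p = 0.0258 and 0.0152). P4hb, the disulfide isomerase that is also a prolyl hydroxylase subunit, had 0.68 (adjusted p = 0.0155). Sec24d, a coat protein for bulky cargo, had 1.03 (adjusted p = 0.028), and Kdelr2, a retrieval receptor, 1.21 (adjusted p = 0.0204). Creb3l1, a transcription factor of secretory osteoblasts, was at 7.68, 7.78 and 8.96 CPM at 0 h and 43.8, 32.05 and 23.7 CPM at 21 d (log2 fold change 2.03, adjusted p = 0.00264). Leaving out 1 mouse moved the adjusted p to 0.0623 to 0.236 for Ssr1 without 0 h mouse 1, 2 or 3 or 21 d mouse 1 or 2, 0.0773 to 0.185 for Surf4 without 0 h mouse 2 or 21 d mouse 1 or 2, 0.0531 to 0.276 for P4hb without 0 h mouse 1 or 2 or 21 d mouse 1 or 2, 0.105 to 0.309 for Sec24d without 0 h mouse 1 or 2 or 21 d mouse 1 or 2 and 0.0631 to 0.176 for Kdelr2 without 0 h mouse 1, 2 or 3 or 21 d mouse 1 or 2, and in the later campaign alone it was 0.0595 for Ssr1, 0.0827 for Surf4 and 0.107 for P4hb. Creb3l1 passed the test whichever of the 6 mice was left out.

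Also picked after their values were seen, 4 epidermal serpins of 1 family fell. Log2 fold changes were -1.25 for Serpinb3a, -1.084 for Serpinb3b, -2.02 for Serpinb3c and -1.110 for Serpinb12 (adjusted p = 0.0255, 0.0279, 0.0233 and 0.0435), and the first 3 are close copies whose reads may be split. The detoxifying enzymes Ephx1, an epoxide hydrolase, and Mgst1, a glutathione transferase, had -1.16 and -1.23 (adjusted p = 0.00341 and 0.0374). The adjusted p with 1 mouse fewer was 0.0523 to 0.243 for Serpinb3a without 0 h mouse 1, 2 or 3 or 21 d mouse 1 or 2, 0.0684 to 0.37 for Serpinb3b without 0 h mouse 1, 2 or 3 or 21 d mouse 1 or 2, 0.0521 to 0.207 for Serpinb3c without 0 h mouse 2 or 3 or 21 d mouse 1, 2 or 3, 0.0785 to 0.499 for Serpinb12 without 0 h mouse 1 or 3 or 21 d mouse 1 or 2, 0.0557 for Ephx1 without 21 d mouse 1 and 0.0643 to 0.325 for Mgst1 without 0 h mouse 1, 2 or 3 or 21 d mouse 1 or 2, and in the later campaign alone it was 0.11 for Serpinb3b, 0.114 for Serpinb3c and 0.202 for Serpinb12. C1qtnf6 and C1qtnf5, relatives of C1qtnf3, rose by 3.51 and 2.75 on the log2 scale (adjusted p = 4.03e-04 and 0.00338). In fits without single mice, the adjusted p was 0.0718 for C1qtnf5 without 21 d mouse 1. C1qtnf6 passed the test whichever of the 6 mice was left out.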
